A study of Mus musculus with 2 samples.

Results

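Cd226 encodes DNAM-1, an activating receptor of natural killer (NK) cells, and the comparison described here is between NK cells in which a Cd226 transcript was caught and NK cells in which none was. The cells came from 1 single-cell library of spleens of wild-type mice, enriched for NK cells by removing other lineages with antibodies and magnetic beads. The library was made with 10x Genomics 3′ v3.1 chemistry, and lipid tags marked cells of different mice that were run together. The study as a whole asks how Kir6.1, a potassium channel subunit, bears on the development of NK cells. Every cell here was wild type, no treatment is labelled, and neither age nor strain is given in the sources used here. The labels list 2 samples of this kind, of which 1 was analysed here.

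The members were chosen from 16384 barcodes. Barcodes with 500 to 6000 detected genes, at most 10% mitochondrial transcripts and exactly 1 tag above its limit were kept, which gave 11692 cells. NK cells were those with a unique molecular identifier (UMI, 1 captured transcript) of at least 2 of the receptor genes Ncr1, Klrb1c and Klre1 and no UMI of the T cell genes Trac, Cd3d and Cd3g, of the cytokine receptor gene Il7r or of the B cell gene Cd79a. This left 7464 cells, of which 962 held under 2500 UMIs and were not used. Each of the other 6502 cells was reduced to 2500 UMIs drawn at random. Cells with at least 1 Cd226 UMI among those drawn were called Cd226-positive, and cells with 0 were called Cd226-negative. There were 1217 Cd226-positive and 5285 Cd226-negative cells. All UMIs of the cells, drawn or not, were then summed per class and tag, and the unit of a level is CPM, a gene's share of all gene UMIs times 1000000. The 3 tags served as replicates. The labels do not say which tag stands for which mouse. The p-values set a class difference only against its variation over the tags of 1 library, with spread shared between genes. That variation may be technical.

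DNAM-1 belongs to the immunoglobulin superfamily and binds CD155 and CD112, the products of Pvr and Nectin2, on other cells. TIGIT and CD96 bind ligands of the same family and can counter it. It works together with the integrin LFA-1 and signals through kinases and adaptors such as Fyn, Grb2 and Vav1. In mouse spleen its protein is found on some NK cells and not on others. NK cells also carry a changing selection of Ly49 receptors, encoded by the Klra genes, and the CD94-NKG2A receptor, encoded by Klrd1 and Klrc1, which read MHC class I molecules.

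Cd226 (ENSMUSG00000034028) lies on chromosome 18 of the mm10 build at 89176967 to 89272229 on the plus strand and overlaps no other annotated gene. The Cd226-positive share was 16.3% in tag 1, 19.2% in tag 2 and 20.7% in tag 3, a mean of 18.7% ± 2.21 (SD, n = 3 tags). Over all cells it was 18.7%, with an exact 95% binomial interval of 17.8 to 19.7% that covers counting error only. The share depends on how deeply a cell is read: with every UMI of the same cells counted, 1783 cells or 27.4% held a Cd226 UMI. Among the Cd226-positive cells 838, or 68.9%, held exactly 1 of the drawn UMIs and 247, or 20.3%, held 2. The highest number was 7, in 2 cells. The 838 cells with 1 UMI lie just inside the limit and the 5285 cells with 0 lie just outside it.

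UMIs that were not among the 2500 drawn took no part in the classing. In those, Cd226 stood at 268, 359 and 350 CPM in Cd226-positive cells of tags 1, 2 and 3, against 61.5, 64.7 and 77.0 CPM in Cd226-negative cells. The lowest Cd226-positive value was above the highest Cd226-negative one. Cells just inside the limit, with 1 drawn UMI, averaged 252 ± 33.6 CPM in their other UMIs, cells with 2 or more averaged 489 ± 92.4 CPM, and cells with 0 averaged 67.7 ± 8.18 CPM (SD, n = 3 tags each). The classes were thus graded in Cd226, and Cd226-negative cells were not without it: 10.7% ± 1.63 of them held a Cd226 UMI among those not drawn, against 41.8% ± 7.27 of Cd226-positive cells. In B cells of the same library, taken as a type that should lack the receptor, 3 of 380 cells (0.789%, exact 95% interval 0.163 to 2.29%) held a UMI at the same depth. Their median total was 3733 UMIs before the draw, against 3831.5 in the NK cells by the rule.

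**Figure D1:**
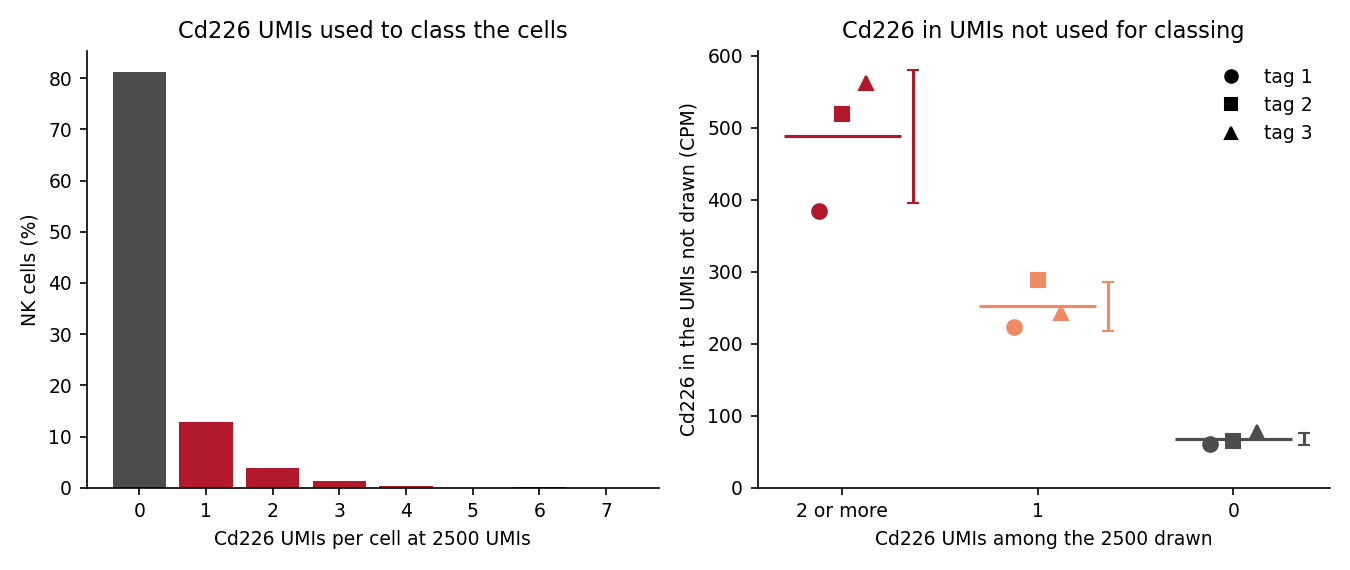
The left plot gives the percentage of the 6502 NK cells by number of Cd226 UMIs among the 2500 drawn, with Cd226-positive cells in red and Cd226-negative cells in grey. The right plot gives Cd226 in CPM among the UMIs not drawn, with points for the 3 tags, a line at their mean and a bar of 1 SD: the means are 489 CPM with 2 or more drawn UMIs, 252 CPM with 1 and 67.7 CPM with 0.

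The classes were close in depth and quality. Cd226-positive cells had a median of 4404 UMIs, 2013 genes and 1.33% mitochondrial UMIs, against 4050 UMIs, 1912 genes and 1.31% in Cd226-negative cells. The NK genes of the cell rule are described without a test: Ncr1, the gene of NKp46, averaged 943 ± 53.9 CPM in Cd226-positive and 814 ± 46.0 CPM in Cd226-negative cells, and Klrb1c, the gene of NK1.1, averaged 1101 ± 54.2 CPM in Cd226-positive and 1029 ± 62.9 CPM in Cd226-negative cells (SD, n = 3 tags each). Klre1 averaged 1194 CPM in Cd226-positive and 1189 CPM in Cd226-negative cells. Of 7 other NK markers tested, such as the granule genes Gzma and Prf1, none passed in either direction and their median log2 fold was 0.03. The presence of Ncr1, Klrb1c and Klre1 in both classes was fixed by the rule, that of the other 7 markers was not.

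Cells that carried markers of other cell types were not spread evenly over the classes. A UMI of a rare marker of type 1 innate lymphoid cells (ILC1) or T cells, each seen in under 5% of the NK cells, was held by 18.3% ± 1.56 of Cd226-positive cells and by 10.9% ± 0.34 of Cd226-negative cells. ILC1 markers made up nearly all of this, with 17.9% ± 1.38 of Cd226-positive and 10.2% ± 0.38 of Cd226-negative cells, while T cell markers were held by 0.473% ± 0.505 of Cd226-positive and 0.896% ± 0.123 of Cd226-negative cells. At least 2 UMIs of markers of another type (B, plasma, dendritic, myeloid, platelet, erythroid or stromal) were held by 6.81% ± 1.76 of Cd226-positive and 8.03% ± 1.23 of Cd226-negative cells (SD, n = 3 tags each). Barcodes with several tags had been left out, but from the tag proportions about 1781 pairs of cells with the same tag were expected among the 11692 single-tag cells, or 15.2% of them. For this reason results are given a second time without the cells that hold either kind of marker, which kept 929 Cd226-positive cells of 5338. This smaller set, called the marker-free set below, was defined after the values were seen. Lef1, Bcl11b, Cd28 and Tnfsf10 stand on the ILC1 or T cell lists but were by choice not used to leave cells out. The progenitor, endothelial and other innate lymphoid lists and markers seen in at least 5% of the NK cells were not used either. Kit, Car1, Car2 and Cd74 are thus among the unused markers. Cells with under 2 UMIs of another type's markers stayed in, so the set can still hold cells of other types. A marker that was used is lowered in this set by its definition.

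Of 11902 genes tested with edgeR's quasi-likelihood test at a Benjamini-Hochberg adjusted p of 0.05, 498 (4.18%) passed: 179 (1.5%) were higher and 319 (2.68%) lower in Cd226-positive cells. For 1816 genes (15.3%) the 3 values of 1 class lay all above those of the other, so a lack of overlap alone is common. The median log2 fold over all genes, Cd226-positive over Cd226-negative, was -0.0043. Of 10865 genes tested in the marker-free set, 123 (1.13%) passed, 70 (0.644%) of them higher and 53 (0.488%) lower. Of these, 65 higher and 43 lower genes had been called in the same direction with all cells, which is 92.9% and 81.1% of the marker-free calls, and 36.3% and 13.5% of the calls with all cells. With another random draw of the 2500 UMIs, which moves cells between the classes, 155 genes were higher and 184 lower; where a gene named here lost its call with that draw, its value is given beside the result.

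The clearest difference among NK genes was in the receptors for MHC class I and related ligands. Cd226-positive cells had more transcript of Klrc1 and Klrb1b and less of several Ly49 genes. Klrc1 encodes NKG2A, an inhibitory receptor that pairs with CD94, and lies on chromosome 6 at 129666015 to 129678973. It had 333, 331 and 381 CPM in Cd226-positive cells of tags 1, 2 and 3, against 163, 149 and 213 CPM in Cd226-negative cells. The lowest Cd226-positive value was above the highest Cd226-negative one. Klrc1 was thus 2.02-fold higher, a log2 fold of 1.02 ± 0.06 (SE; edgeR adjusted p = 8.1e-10), and 0.86 ± 0.06 in the marker-free set (edgeR adjusted p = 4.1e-13). At 2500 UMIs, 47.5% of Cd226-positive and 26.7% of Cd226-negative cells held a Klrc1 UMI. Its partner gene Klrd1 and the related Klrc2 did not pass the test.

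Klrb1b encodes NKR-P1B, an inhibitory receptor for the lectin-like protein Clr-b, and lies on chromosome 6 at 128813706 to 128826331, where 1 other annotated gene, Gm44511, overlaps it. Its level was 525, 419 and 452 CPM in Cd226-positive cells, against 234, 206 and 201 CPM in Cd226-negative cells of tags 1, 2 and 3. Again the classes did not overlap. This amounted to a log2 fold of 1.13 ± 0.05 (SE; edgeR adjusted p = 1.4e-11) with all cells and of 1.03 in the marker-free set, and 56.2% of Cd226-positive against 31.0% of Cd226-negative cells held a UMI. Klri2, which encodes a subunit of a lectin-like receptor, fell by 0.22 on the log2 scale (edgeR adjusted p = 0.010) and by 0.30 in the marker-free set. Cd160, a receptor gene of NK cells and ILC1, rose by 0.53 with all cells (edgeR adjusted p = 8.1e-05), but had 0.28 in the marker-free set, where it did not pass (edgeR adjusted p = 0.11). Of the 30 tested genes for NK receptors and adaptors other than the Ly49 genes, 5 rose and 2 fell, with a median log2 fold of 0.08; in the marker-free set these were 2 and 1 of 29. The other rises with all cells were Sh2d1a, the gene of the adaptor SAP, by 0.23 (edgeR adjusted p = 0.035) and the inhibitory receptor gene Klrg1 by 0.28, while Pirb, an inhibitory receptor gene of myeloid and B cells with under 5 CPM in both classes, fell by 2.34. Without tag 1 Klri2 (-0.16) and Klrg1 (0.27) did not pass, without tag 2 Sh2d1a (0.21) and Pirb (-2.11), and without tag 3 Klrg1 (0.19), Sh2d1a (0.18) and Pirb (-1.81). With another draw Klrg1 (0.29), Sh2d1a (0.13) and Pirb (-0.26) did not pass. The activating receptor gene Klrk1 (NKG2D) and the adaptor genes Tyrobp and Hcst did not pass.

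Klra4 encodes Ly49D, an activating receptor, and lies on chromosome 6 at 130043731 to 130067271. It had 912, 857 and 924 CPM in Cd226-positive cells of tags 1, 2 and 3, against 1728, 1785 and 1790 CPM in Cd226-negative cells. The classes were far apart in every tag. Klra4 was 1.96-fold lower, a log2 fold of -0.97 ± 0.04 (SE; edgeR adjusted p = 1.6e-12), and -1.02 ± 0.04 in the marker-free set (edgeR adjusted p = 1.5e-20). It was detected in 41.9% of Cd226-positive and 70.4% of Cd226-negative cells. Over 24 other ways of processing, its log2 fold ran between -1.44 and -0.81 and passed in all 24.

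Klra8 encodes Ly49H, the activating receptor that recognises a protein of murine cytomegalovirus in C57BL/6 mice. It had 1075, 1089 and 1057 CPM in Cd226-positive cells, against 1627, 1659 and 1448 CPM in Cd226-negative cells of tags 1, 2 and 3, a log2 fold of -0.55 ± 0.04 (SE; edgeR adjusted p = 1.3e-08). Klra1, the gene of the inhibitory Ly49A, had 106, 95 and 97.4 CPM in Cd226-positive and 157, 167 and 164 CPM in Cd226-negative cells, a log2 fold of -0.71 ± 0.07 (SE; edgeR adjusted p = 1.4e-06). For both genes the classes did not overlap. Klra7, the gene of the inhibitory Ly49G, fell by 0.29 (edgeR adjusted p = 0.0012) and Klra6, the gene of Ly49F, by 0.97 (edgeR adjusted p = 0.00059) at 13.1 ± 2.85 CPM in Cd226-positive and 26.2 ± 4.73 CPM in Cd226-negative cells (SD, n = 3 tags each). These 4 genes passed in the marker-free set too.

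Of the other 4 tested Ly49 genes none passed. Klra3, the gene of Ly49C, had 291, 249 and 268 CPM in Cd226-positive and 279, 264 and 264 CPM in Cd226-negative cells of tags 1, 2 and 3, a log2 fold of 0.00 ± 0.05 (SE; edgeR adjusted p = 0.99). Klra9, the gene of Ly49I, had 635, 415 and 698 CPM in Cd226-positive and 544, 479 and 568 CPM in Cd226-negative cells, a log2 fold of 0.11 ± 0.07 (SE; edgeR adjusted p = 0.48). The values of both genes overlapped between the classes, and without tag 2 Klra9 passed as higher in Cd226-positive cells, at 0.26 (edgeR adjusted p = 0.00054). Of 9 tested Ly49 genes, 5 were lower and none higher, with a median log2 fold of -0.55 over the list against -0.0043 over all genes; in the marker-free set it was again 5 lower, with a median of -0.47. Summed over the list, Ly49 transcripts made up 3311 to 3673 CPM in Cd226-positive cells and 4948 to 5154 CPM in Cd226-negative cells. The Ly49 genes are close copies of each other, so reads may be split between them, and a difference in 1 of them can include reads of another.

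**Figure D2:**
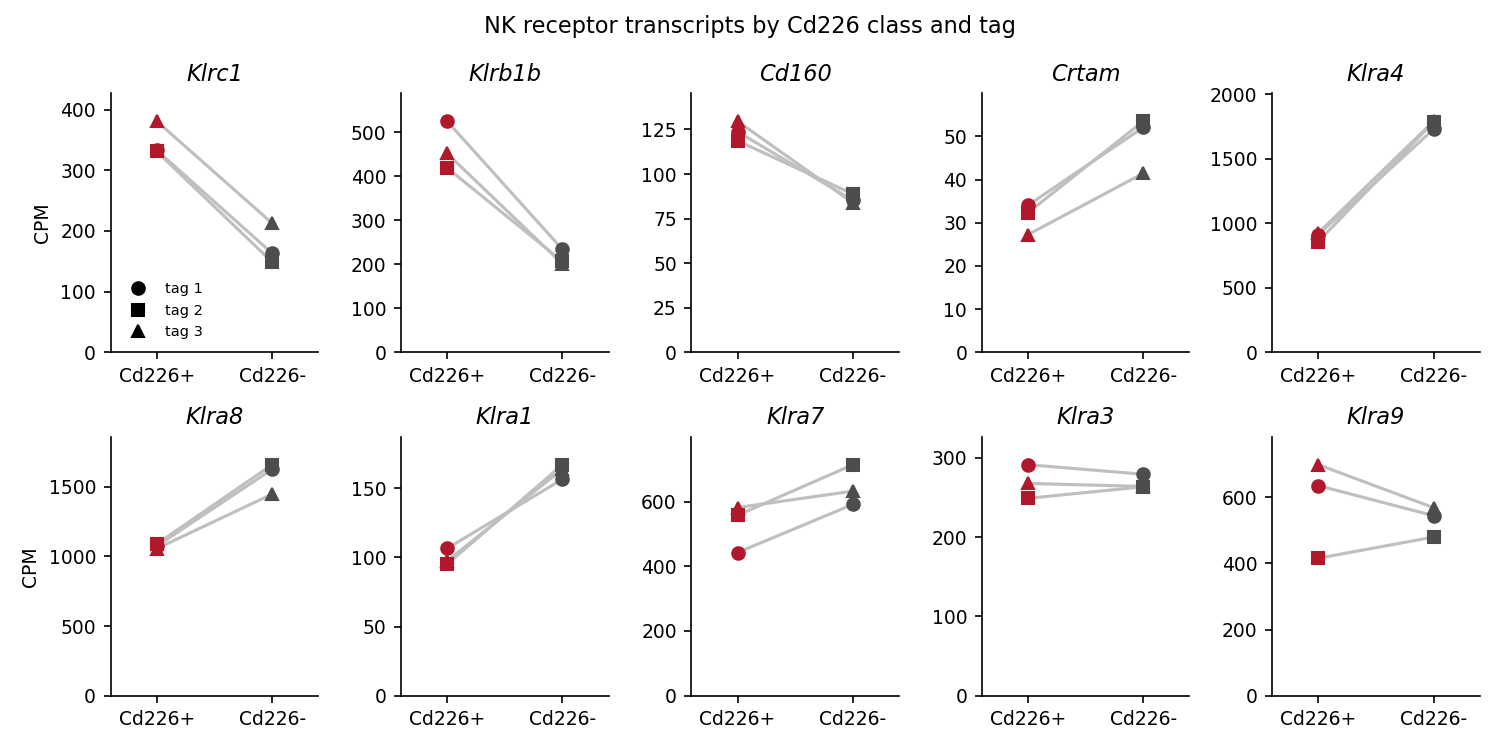
Levels of 10 receptor genes in CPM, each with its own axis from 0, in Cd226-positive cells (red, left) and Cd226-negative cells (grey, right); each line joins the 2 classes of a tag. Klrc1, Klrb1b and Cd160 were higher and Crtam, Klra4, Klra8, Klra1 and Klra7 lower in Cd226-positive cells of all 3 tags, while the Klra3 and Klra9 lines run in both directions.

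Cell by cell, the same pattern showed as a gradient, which is given as a description because it was looked for after the gene results were seen. Among cells with a Klrc1 but no Klra4 UMI, 37.1% ± 5.03 were Cd226-positive, against 9.99% ± 1.01 of cells with Klra4 but no Klrc1 (SD, n = 3 tags each). Cells with both had 19.5% ± 1.59 and cells with neither had 25.4% ± 3.02. In every tag the Klrc1-only share was the highest and the Klra4-only share the lowest, and the median total UMIs of these extremes were 4050 and 4049. By the number of Ly49 genes with a UMI, 48.3% ± 5.81 of cells with 0 were Cd226-positive, 37.2% ± 9.41 with 1, 22.6% ± 2.35 with 2, 16.2% ± 2.75 with 3 and 11.6% ± 0.88 with 4 or more. Tag 1 stood lower than the other tags at 1 Ly49 gene, with 26.4% against 42.0 and 43.3%. Cells with no Ly49 gene had a median of 5429 UMIs before the draw and cells with 4 or more had 3941. The group with 0 Ly49 genes was small, at 230 cells, of which 114 were in the marker-free set. With 4 or more there were 2239 cells, of which 1903 were in that set. In the marker-free set the shares ran between 51.4% with 0 Ly49 genes and 11% with 4 or more. A Cd226-positive cell held on average 2.53, 2.33 and 2.49 Ly49 genes with a UMI in tags 1, 2 and 3, and a Cd226-negative cell 3.10, 3.13 and 3.12.

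**Figure D3:**
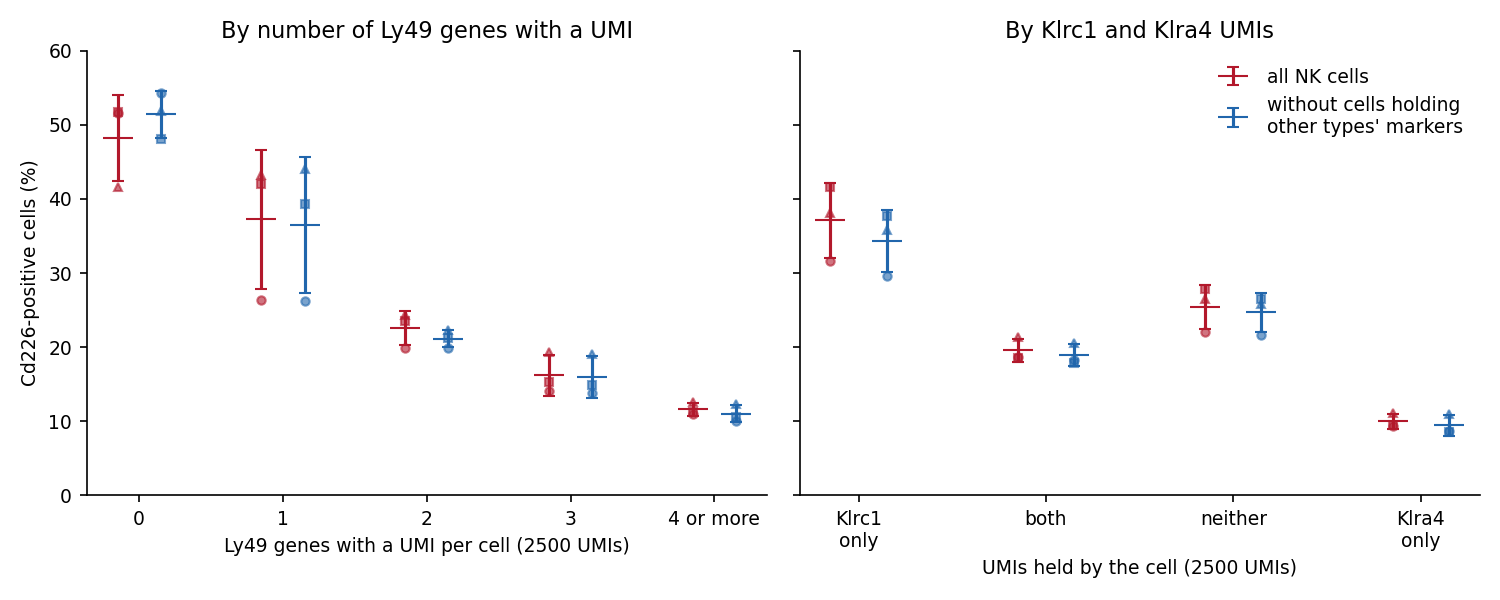
Percentage of NK cells that were Cd226-positive, by the number of Ly49 genes with a UMI (left) and by UMIs of Klrc1 and Klra4 (right), for all NK cells (red) and the marker-free set (blue); points are the 3 tags, lines their mean and bars 1 SD. With all cells the share is 48.3% at 0 Ly49 genes and 11.6% at 4 or more, and 37.1% in Klrc1-only cells and 9.99% in Klra4-only cells.

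Tigit and Cd96, whose products share ligands with DNAM-1, did not pass the test. Tigit, whose product competes for CD155, had 19.2, 18.0 and 16.6 CPM in Cd226-positive and 19.4, 24.4 and 18.3 CPM in Cd226-negative cells of tags 1, 2 and 3, a log2 fold of -0.22 ± 0.16 (SE; edgeR adjusted p = 0.59). Cd96 had 72.4, 59.3 and 66.1 CPM in Cd226-positive and 64.9, 59.3 and 63.7 CPM in Cd226-negative cells, a log2 fold of 0.07 ± 0.08 (SE; edgeR adjusted p = 0.79). The values of both overlapped. Pvrig, a receptor gene of the same group, had a log2 fold of -0.31, the ligand gene Pvr 0.66 and Nectin1 -1.06, and these 3 genes averaged under 6 CPM and did not pass.

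Crtam, the gene of an immunoglobulin-like receptor for the adhesion protein Cadm1, was the relative that passed in both sets of cells. It had 34.0, 32.3 and 27.2 CPM in Cd226-positive cells, against 52.1, 53.5 and 41.4 CPM in Cd226-negative cells of tags 1, 2 and 3. All Cd226-positive values were below the lowest Cd226-negative one. On the log2 scale it fell by 0.65 ± 0.11 (SE; edgeR adjusted p = 0.00065) with all cells and had -0.67 in the marker-free set (edgeR adjusted p = 0.0013). Over 24 other ways of processing the log2 fold ran between -0.88 and -0.33 and passed in 19. Of the 8 tested relatives and ligands, 3 fell and none rose, with a median of -0.48. The other two that fell, Cadm1 with -2.89 and Cd200 with -3.40, averaged 1.80 and 0.29 CPM in Cd226-positive and 12.3 and 3.34 CPM in Cd226-negative cells and were too low for a test in the marker-free set, where only Crtam of 5 passed. Cadm1 had -1.98 without tag 2 and -4.11 without tag 3, and with another draw Cadm1 (-1.60) and Cd200 (-2.10) did not pass.

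For genes of the proteins through which DNAM-1 works, the count stands beside 1.5% higher and 2.68% lower of all genes tested. Of 19 signalling partners tested, 1 rose, Vav3, an exchange factor of the Vav family, by 0.27 (edgeR adjusted p = 0.012), and in the marker-free set none of 18 passed and Vav3 had 0.24 (edgeR adjusted p = 0.087). Itgal and Itgb2, which encode the chains of LFA-1, were among those that did not pass with all cells, as were Fyn, Grb2 and Vav1. Vav3 did not pass without tag 1 (0.24) or without tag 2 (0.26). The list's median log2 fold was 0.02.

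Outside the receptor families, 7 of the genes with the largest folds passed in both sets of cells. Gramd3, which encodes a membrane-associated protein with a GRAM domain and lies on chromosome 18 at 56400337 to 56503792, had 172, 133 and 131 CPM in Cd226-positive cells, against 64.2, 47.0 and 46.6 CPM in Cd226-negative cells of tags 1, 2 and 3. Its log2 fold was 1.48 ± 0.07 (SE; edgeR adjusted p = 5.2e-11) and lay between 1.28 and 1.81 over 24 other ways of processing, and it passed in the marker-free set (edgeR adjusted p = 2.4e-15). Gm36723, a long intergenic non-coding RNA gene on chromosome 12 at 25303940 to 25471979, had 97.2, 129 and 152 CPM in Cd226-positive and 37.9, 41.9 and 54.8 CPM in Cd226-negative cells, a log2 fold of 1.51 ± 0.08 (SE; edgeR adjusted p = 1.8e-10). For both genes the classes did not overlap.

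Ikzf2, which encodes the transcription factor Helios, had 71.8, 77.4 and 71.1 CPM in Cd226-positive cells, against 26.8, 27.2 and 33.3 CPM in Cd226-negative cells of tags 1, 2 and 3. It thus rose by 1.35 ± 0.10 on the log2 scale (SE; edgeR adjusted p = 4.6e-08), and had 1.24 in the marker-free set. Rab27b, a small GTPase gene of vesicle traffic, rose by 1.24 and St6galnac3, a sialyltransferase gene, by 1.31, with 1.16 and 0.80 in the marker-free set. Dtx1, a gene of Notch signalling, rose by 1.21, and Inpp4b, a lipid phosphatase gene that also served as an ILC1 marker, by 1.19, with 0.84 and 1.23 in the marker-free set. All 5 genes passed in both sets.

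With all cells, rises were ranked among called genes that were higher in all 3 tags and had at least 20 CPM in the higher class. The 4 largest were the platelet genes Ppbp (2.91), Pf4 (2.61), Clec1b (2.48) and Gng11 (1.79). In Pf4 the Cd226-positive values were 25.4, 87.5 and 159 CPM, against 10.1, 25.1 and 6.13 CPM in Cd226-negative cells of tags 1, 2 and 3, so the spread between tags was wide. Without tag 2 Pf4 had 3.34 and Ppbp 3.55, and without tag 3 they had 1.69 and 2.10. With another draw they had 1.81 and 1.73 and still passed. Of 9 tested platelet markers 8 rose, and their summed level was 79.8 to 395 CPM in Cd226-positive and 36.7 to 76.1 CPM in Cd226-negative cells. Of the 3 that could be tested in the marker-free set none passed, Itgb3 with 1.17, Gp1bb with 0.0012 and Gng11 with -1.21. All 3 were themselves used to leave cells out of that set, so this was in part fixed by its definition. Barcodes with platelet markers and no NK marker, 65 in all, had 444 CPM of Cd226 themselves. The part of such cells in the result was not tested beyond these values.

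The 12 largest falls among called genes that were lower in all 3 tags and had at least 20 CPM in the higher class included genes of myeloid cells. S100a8 (-5.87) and S100a9 (-4.64) encode proteins that neutrophils carry in large amounts, Lyz2 (-2.65) encodes the lysozyme of macrophages, and Apoe (-3.89) and the complement gene C3 (-3.46) encode secreted proteins. The others were Marcks (-3.43), Slpi (-3.11), Mt1 (-2.80), Ifitm3 (-2.64), Fmnl2 (-2.62), Car1 (-2.59) and Igfbp6 (-2.39). S100a8 had 0.62, 0.38 and 0.50 CPM in Cd226-positive cells, against 1.45, 17.2 and 69.8 CPM in Cd226-negative cells of tags 1, 2 and 3, and was held by 0.164% of Cd226-positive and 0.416% of Cd226-negative cells. S100a9 was held by 0.411% of Cd226-positive and 0.416% of Cd226-negative cells, and Lyz2 by 2.05% of Cd226-positive and 2.01% of Cd226-negative cells. For these 2 genes the classes thus differed in summed UMIs and hardly in the share of cells. The draw mattered as well: with another draw Lyz2 had 0.37, Ifitm3 -0.20 and Fmnl2 -0.99, which did not pass, and Apoe (-1.29), C3 (-1.42), Marcks (-1.43), Mt1 (-1.94) and Igfbp6 (-1.56) had smaller falls that passed. Without tag 3 S100a9 had -3.52, Lyz2 -3.26, Ifitm3 -3.43 and Car1 -1.82, and without tag 2 C3 had -2.46. Of the 12, the metallothionein gene Mt1 and the carbonic anhydrase gene Car1 passed in the marker-free set, with log2 folds of -1.39 and -0.83. Without the deepest 10% of cells Mt1 (-0.95) and Car1 (-0.34) did not pass, nor did Car1 (-0.40) without cells holding Mki67 or Top2a. In the marker-free set Apoe had -1.10 and Marcks -2.84 and did not pass, and Lyz2, Ifitm3, Fmnl2, C3 and Igfbp6 lay between -0.24 and 0.25. S100a8, S100a9 and Slpi were too low to be tested in that set. S100a8, S100a9 and Lyz2 were among the markers used to leave cells out of it.

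**Figure D4:**
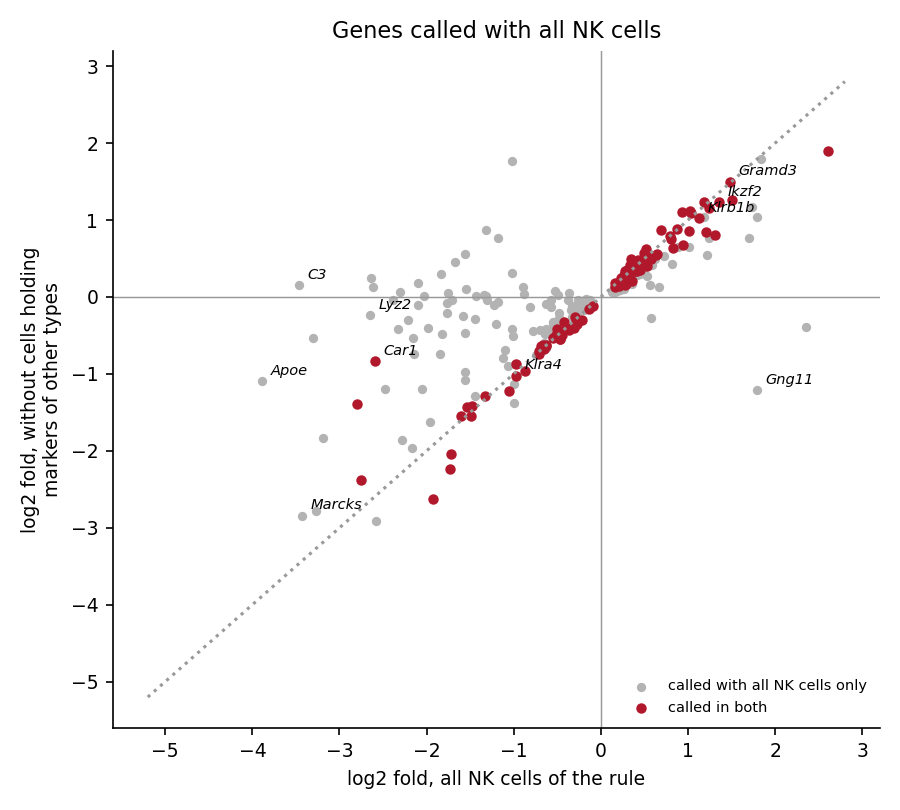
Log2 folds of the 313 genes called with all NK cells and tested in both sets, with all cells on the horizontal and the marker-free set on the vertical axis; red points were called in both, grey points with all cells only, and the dotted line marks equal folds. The 108 red points, among them Gramd3, Ikzf2, Klrb1b and Klra4, lie mostly near the line, while genes such as Lyz2, C3 and Apoe lie far from it, and 287 of 313 kept their sign.

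The same rule named further genes in the marker-free set. Thy1, a surface glycoprotein gene of immature NK cells and ILC1, had 71.2, 76.6 and 80.7 CPM in Cd226-positive cells, against 32.6, 40.7 and 38.1 CPM in Cd226-negative cells of tags 1, 2 and 3, a log2 fold of 1.03 with all cells and 1.09 without marker cells. The transporter gene Slco3a1 had 1.11 in the marker-free set and S100a4, a calcium-binding protein gene, 0.87. Among genes that fell there, Cmya5 had -1.55, the cytoskeletal gene Frmd5 -1.43, the sugar phosphate transporter gene Slc37a2 -1.29, and the growth factor receptor gene Kit -0.74. Scimp, which encodes an adaptor protein, had -0.64. With all cells these 7 genes passed in the same direction. Lyst, the gene mutated in beige mice that shapes cytotoxic granules, was 1.73-fold higher with all cells, at 198 ± 10.3 CPM in Cd226-positive and 115 ± 2.44 CPM in Cd226-negative cells (SD, n = 3 tags each).

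NK cells lose CD27 and gain CD11b (Itgam) as they mature. By these genes, 20.4% ± 2.64 of Cd27-only cells were Cd226-positive, 19.96% ± 4.51 of cells with both, 17.1% ± 1.81 of Itgam-only cells and 19.4% ± 2.73 of cells with neither (SD, n = 3 tags each). Within each tag the Cd27-only share was above the Itgam-only share, at 17.6, 20.5 and 22.9% of Cd27-only cells and 16.3, 15.8 and 19.2% of Itgam-only cells in tags 1, 2 and 3. This difference was not tested, and depth differed before the draw, with a median of 4890 UMIs for Cd27-only cells, against 3805 UMIs for Itgam-only cells. Conversely, Cd27-only cells made up 12.3% ± 0.33 of Cd226-positive and 11.1% ± 0.41 of Cd226-negative cells, and Itgam-only cells 32.2% ± 3.17 of Cd226-positive and 35.8% ± 0.73 of Cd226-negative cells. Of 18 tested genes known from immature NK cells, 6 rose and 1 fell, with a median log2 fold of 0.23, with 6 and 1 of 17 in the marker-free set. Besides Thy1, those that rose with all cells were Emb (0.57), an adhesion gene, Ltb (0.54), a lymphotoxin gene, Cd28 (0.42) and Cd7 (0.36), which encode lymphocyte surface proteins, and the chemokine receptor gene Cxcr3 (0.63), which had 0.49 in the marker-free set and did not pass there (edgeR adjusted p = 0.074); the sixth gene of that set was Plxnc1, a semaphorin receptor gene. Kit, known from early stages, fell by 0.71. Emb differed more between tags than between classes, with 666, 473 and 421 CPM in Cd226-positive and 509, 310 and 255 CPM in Cd226-negative cells.

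Of 19 tested genes of mature NK cells, 3 rose and 2 fell, with a median of -0.00020. S100a4 rose by 0.69, Prdm1, the gene of the transcription factor Blimp-1, by 0.34 and the inhibitory receptor gene Klrg1 by 0.28, while Irf8, a transcription factor gene, fell by 0.29 and the protease gene Cma1 by 0.30. Without marker cells S100a4 alone rose and 3 genes fell, Irf8, Cma1 and the granzyme gene Gzmb, which had -0.22 there, and -0.18 with all cells, where it did not pass. Without tag 1 or 2 Prdm1 (0.30 and 0.33) did not pass, without tag 1 or 3 Klrg1 (0.27 and 0.19) did not, and without tag 2 Irf8 (-0.20) and Cma1 (-0.23) did not; Gzmb (-0.25) passed without tag 3. With another draw Prdm1 (0.17), Klrg1 (0.29) and Irf8 (-0.21) did not pass, and Gzmb (-0.21) did. Genes of both directions thus stood on both maturation lists.

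Of 31 tested transcription factor genes of NK cells, 8 rose, Ikzf2 and Prdm1 among them, and 2 fell, with a median of 0.13. Id2, an inhibitor of E proteins that innate lymphoid cells need, had 1069, 994 and 1112 CPM in Cd226-positive cells, against 915, 832 and 881 CPM in Cd226-negative cells of tags 1, 2 and 3. That is a log2 fold of 0.28 ± 0.04 (SE; edgeR adjusted p = 9.7e-05), with no overlap. Lef1 rose by 0.39, and Gata3 (0.42), Bcl11b (0.88), Runx1 (0.21) and Ets1 (0.16) rose with all cells. Of the 8, Ikzf2, Id2 and Lef1 rose in the marker-free set too, and Irf8 was the 1 that fell there. Myb, a progenitor gene, fell by 0.57 with all cells and had -0.13 in the marker-free set. Calls were lost without tag 1 for Ets1 (0.14), without tag 2 for Ets1 (0.14), Gata3 (0.33) and Bcl11b (0.74), and without tag 3 for Myb (-0.43). With another draw they were lost for Gata3 (0.23), Bcl11b (0.73), Prdm1 (0.17) and Irf8 (-0.21).

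Several markers of ILC1 and T cells were higher in Cd226-positive cells. Of 9 tested ILC1 markers 4 rose, Rora (0.94), Inpp4b, the integrin gene Itga1 (1.01) and the receptor gene Cd200r1 (1.85), with a median of 0.87. Their summed level was 208 to 250 CPM in Cd226-positive and 115 to 137 CPM in Cd226-negative cells. Tmem176a, Tmem176b, Tnfsf10, Gpr183 and Cxcr6 did not pass. Rora kept a log2 fold of 0.67 in the marker-free set (edgeR adjusted p = 2.5e-05), which leaves out cells with Itga1 or Cd200r1 by its definition. Cells outside the NK rule that held Il7r and Tmem176b with NK markers, 314 in number, had 592 CPM of Cd226. Of the 307 among them with at least 2500 UMIs, 65.1% (exact 95% interval 59.5 to 70.5%) held a Cd226 UMI at that depth. Of 6 tested T cell markers 4 rose, the T cell receptor gene Trbc2 (0.34) and Lef1, Cd28 and Bcl11b, which are named on the lists above too, with a summed level of 590 to 623 CPM in Cd226-positive and 476 to 528 CPM in Cd226-negative cells; Cd3d, Cd3g and Trac are at 0 by the rule. The other 2 had folds below 0 and did not pass, Cd8a with -2.58 (edgeR adjusted p = 0.050) and the gamma-delta T cell receptor gene Trdc with -0.32. In the marker-free set 2 of 5 were higher, Cd28 (0.33) and Lef1 (0.34), and Trdc was lower, at -0.43 (edgeR adjusted p = 0.024), while Trbc2 (0.21) and Bcl11b (0.65) did not pass. None of these 5 genes was used to leave cells out of that set. Itga1 did not pass without tag 3 (0.61) or with another draw (0.94), nor Trbc2 without tag 2 (0.22) or Bcl11b with another draw (0.73). The part of ILC1 or T cells in the gene lists above was not tested beyond the marker-free values given beside them.

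Markers of myeloid and stromal types that passed with all cells were lower in Cd226-positive cells, but few cells held the rarer ones. At least 2 UMIs of rarer monocyte or macrophage markers were held by 1.27% of Cd226-positive and 1.30% of Cd226-negative cells (means of 3 tags). For conventional dendritic cell markers these means were 0.618% of Cd226-positive and 1.70% of Cd226-negative cells. Stromal markers were held by 1 Cd226-positive and 22 Cd226-negative cells. Lyz2 had 0.37 with another draw and did not pass. Of 8 conventional dendritic cell markers 6 fell, and their summed level was 90.5 to 609 CPM in Cd226-positive and 708 to 835 CPM in Cd226-negative cells. Of 6 monocyte or macrophage markers 4 fell, with sums of 47.0 to 80.2 CPM in Cd226-positive and 139 to 195 CPM in Cd226-negative cells. Of 4 stromal markers 3 fell, the collagen genes Col1a2 (-5.71) and Col3a1 (-4.15) and Dcn (-4.62), with sums of 2.02 to 7.43 CPM in Cd226-positive and 3.86 to 209 CPM in Cd226-negative cells. Dcn had -5.33 without tag 1 and -3.88 without tag 2. No gene of these 3 lists passed in the marker-free set, where no stromal marker could be tested. Most of these genes were themselves used to leave cells out of that set. The loss of their calls was thus in part fixed by its definition. None of 7 B cell markers passed with all cells, and none of 4 in the marker-free set. Of these 4, Cd79b, Ebf1 and Bank1 were used to leave cells out as well.

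The counts of the signalling and effector lists stand beside 1.5% higher and 2.68% lower of all genes tested. Of 13 genes of interleukin-12 and interleukin-18 signalling, 4 rose: Il18r1 by 0.25, Il18rap by 0.20, Stat4 by 0.19 and the kinase gene Irak2 by 0.30, of which Irak2 passed in the marker-free set, at 0.35. Without tag 1 Stat4 (0.17), Il18rap (0.17) and Irak2 (0.21) did not pass, and with another draw Irak2 (0.14) did not. Of 20 genes of interleukin-2 and interleukin-15 signalling, the kinase gene Pim2 rose by 0.41 and Kit fell; in the marker-free set Kit alone of 19 passed, and Pim2 had 0.32 (edgeR adjusted p = 0.11). Of 21 granule genes, the serpin gene Serpinb6b rose by 0.21 and Lamp1, a lysosomal membrane gene, fell by 0.33, with a median of 0.09; neither passed in the marker-free set, where Gzmb alone of 20 passed, as lower. Serpinb6b did not pass without tag 1 (0.20) or tag 2 (0.20), nor Lamp1 with another draw (-0.26). Of 12 cytokine and chemokine genes Ltb rose and Ccl6, a chemokine gene of myeloid cells, fell by 3.38, but had 0.0011 with another draw and was too low for a test in the marker-free set, where Ltb alone of 10 passed.

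Of 24 trafficking receptor and integrin genes, Cxcr3, Itga1, Itgb7 (0.26) and Itgb1 (0.15) rose, and 2 fell, Ccr7, a chemokine receptor gene, by 3.07 at 1.54 CPM in Cd226-positive and 13.9 CPM in Cd226-negative cells, and Itga4, an integrin subunit gene, by 0.14 at 1156 ± 107 CPM in Cd226-positive and 1278 ± 68.1 CPM in Cd226-negative cells (SD, n = 3 tags each). Itga4 passed in the marker-free set too, at -0.15. Itga4 did not pass without tag 1 (-0.15) or tag 2 (-0.11), Itgb7 without tag 2 (0.22), Itga1 without tag 3 (0.61), or Itgb1 without any of the 3 tags (0.13 to 0.17), and with another draw neither Itga1 (0.94) nor Itgb1 (0.10) did. Among 13 inhibitory checkpoint genes 4 rose, Klrc1, Cd160, Klrg1 and Cd200r1, and 2 fell, Havcr2 by 2.39 and Btla by 1.29, both under 7 CPM in each class; in the marker-free set Klrc1 alone of 9 passed. Btla did not pass without tag 1 (-1.18) or tag 2 (-1.15), and Havcr2 had -1.75 without tag 2 and -4.40 without tag 3. Neither direction held under other classings: with another draw Btla had 0.20 and Havcr2 -0.050, and with classes from all UMIs Btla had 0.55 and Havcr2 0.35, none of which passed. Of the 4 that rose, Klrg1 (0.29) did not pass with that draw. None of 12 genes of TGF-beta signalling passed, although 11 had a log2 fold above 0, with a median of 0.12, and none of 11 passed in the marker-free set, with a median of 0.12.

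**Figure D5:**
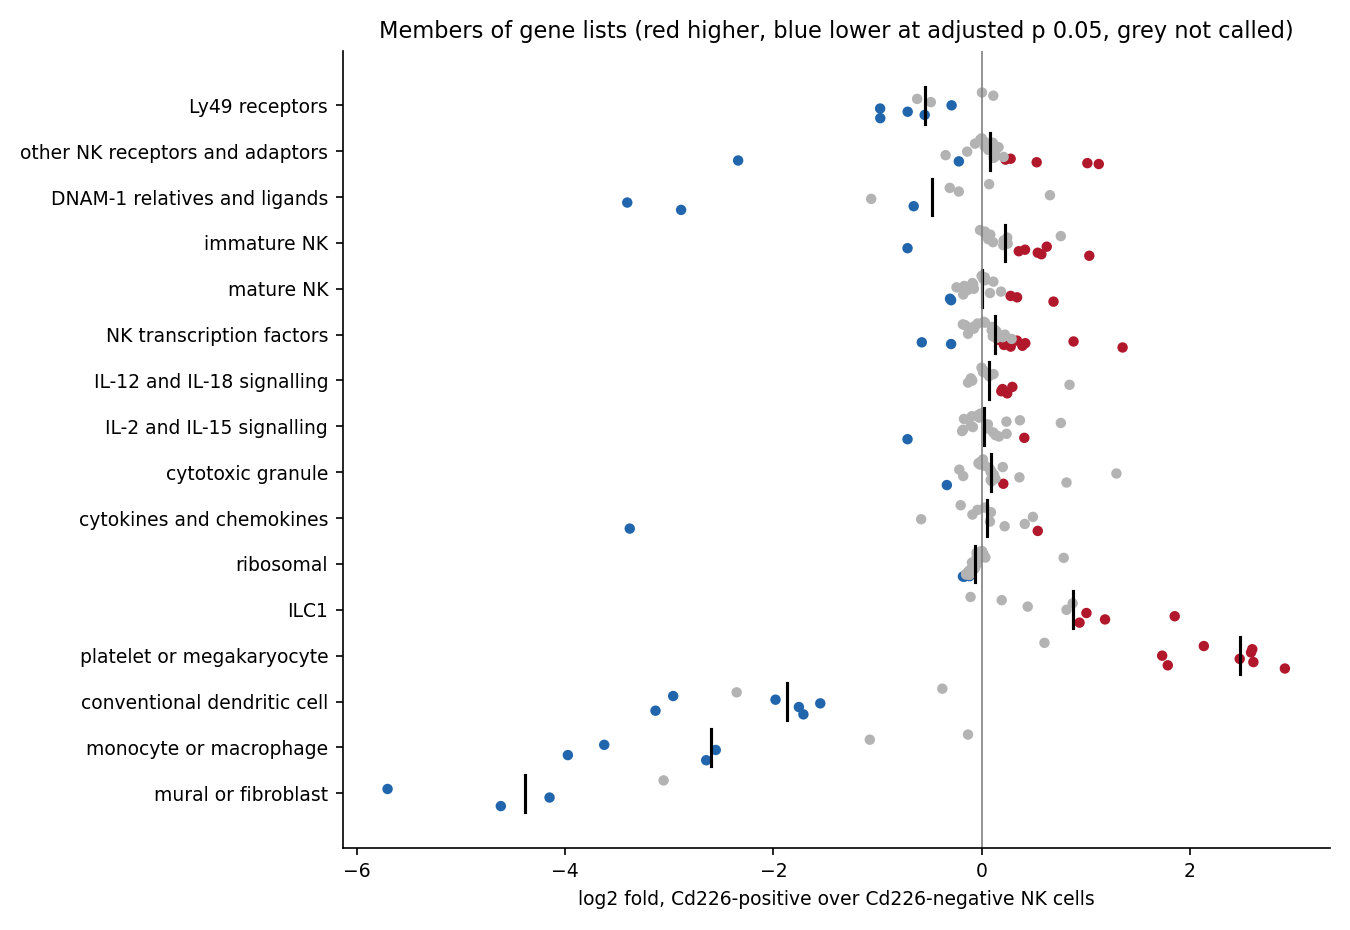
Log2 folds, Cd226-positive over Cd226-negative, of the tested genes of 16 lists with all NK cells; each point is a gene, red where it was higher, blue where it was lower at an adjusted p of 0.05 and grey where it did not pass, and the black bars are list medians. The Ly49 list has its median at -0.55 with 5 blue points of 9, and the platelet, dendritic cell, monocyte and stromal lists lie far from 0.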

How the data were processed

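The deposited matrix holds UMI counts per gene and tag counts per barcode, as the authors left them. Its header names Cell Ranger 7.0.0, and mm10, Cell Ranger and Seurat are listed in the submitters' processing notes. No source used here gives the annotation behind the counts or says whether intronic reads were included. Gene positions come from GENCODE vM21 (mm10).

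The tag limits were 140, 196 and 138 counts. Cells were thinned to 2500 UMIs without replacement (seed 1). Doublets were treated only by dropping barcodes with several tags or none. Sums of unthinned counts per tag and class held 1615980 to 2662288 UMIs in Cd226-positive and 7503256 to 10499620 in Cd226-negative cells. They were tested with edgeR 4.0.16 (R 4.3.3, limma 3.58.1; TMM, filterByExpr, tag as block, 2 residual degrees of freedom, spread shared between genes) and Benjamini-Hochberg adjustment over all genes. The tag is a block because both classes of a tag come from the same tagged cells. Cd226 and the genes of the cell rule were left out of the counts. Thinning, sums and tables used Python 3.11.15 with numpy 2.4.6; the tests were tried on simulated data.

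Genes were named as follows: past the threshold, same direction in 3 tags and at least 20 CPM in the higher class, the 12 largest and 12 smallest folds; every tested DNAM-1 relative; and 2 to 4 members of each other list with the smallest p. A few other list members are named beside them, as are Slc37a2, Scimp, Frmd5, Cmya5, Slco3a1 and Lyst, chosen after their values were seen or by the same rule in the marker-free set. Members and lists were chosen with earlier results of these data known. All cells share 1 library and 1 batch, so no batch could be examined. DESeq2 1.42.0, other filters, depths and cell sets were alternatives.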

Additional observations from a re-analysis of the deposited data

How the results depend on the processing

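With all cells 179 genes were higher and 319 lower. The counts of higher and lower genes were 111 and 91 with sums of thinned counts, 56 and 74 with DESeq2, 23 and 26 with no replicate block (tag left out of the model), 342 and 556 with barcodes of several or no tags, 44 and 28 in Itgam-only cells, 101 and 87 without ILC1 or T marker cells, 115 and 72 without cells of other types' markers, and 70 and 53 without both. The last 3 were chosen after seeing the data. Sums of the UMIs left out by thinning gave 102 and 315. Lower genes moved by over 1.5 times, and higher genes by less, in these pairs of counts of higher and lower genes: 155 and 184 with another thinning seed, 170 and 203 at 1500 UMIs, 121 and 124 with unthinned classes, 128 and 150 with at least 2 Cd226 UMIs, 184 and 555 with no filter, 136 and 160 with all 3 NK markers, 143 and 147 without cells of the planned other-type markers, 153 and 86 without the deepest 10% of cells, and 150 and 206 with a tag by stage block. Leaving out each tag gave 129 to 199 higher and 251 to 326 lower genes, and a Cd226-positive share of 17.7 to 19.9%. The share was 13.3% at 1500 UMIs, 27.4% unthinned and 6.72% with at least 2 UMIs. Fewer cells or UMIs enter several of these fits, and the cause of the moves was not tested. Depth limits the classes: at 2500 UMIs a cell with little Cd226 is often read as Cd226-negative.

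Of 91 named genes that passed, 18 passed in every alternative in which they were tested: Gm36723, Gramd3, Ikzf2, St6galnac3, Rab27b, Klrb1b, S100a8 (tested in 15 of 24), Col3a1 (tested in 15 of 24), Klra4, Klra8, Klra1, Klrc1, Thy1, Ltb, Rora, Slc37a2, Slco3a1 and Lyst.

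Some log2 folds changed sign, and the cause was not tested. Without the planned other-type markers Gng11 had -0.64, Klra3 -0.00099 and Cd96 -0.024. Without cells of other types' markers Gng11 had -0.94, C3 0.024, Slpi 0.12, Ifitm3 0.078, Igfbp6 0.14, Dcn 0.14, Klra3 -0.049 and Cd96 -0.0063. Without both kinds of marker cells Gng11 had -1.21, C3 0.16, Ifitm3 0.25, Fmnl2 0.14 and Cd96 -0.084. Without ILC1 or T marker cells Lyz2 had 0.38 and Cd96 -0.029. With another seed Lyz2 had 0.37, Klra3 -0.16, Nectin1 0.39, Ccl6 0.0011 and Btla 0.20. With unthinned classes Lyz2 had 0.15, Ifitm3 0.11, Klra3 -0.097, Klra9 -0.024, Tubb5 0.083, Nectin1 0.27, Havcr2 0.35 and Btla 0.55. Without the deepest cells Lyz2 had 0.67, Klra3 -0.17 and Cd96 -0.036. With thinned sums Klra3 had -0.12 and Cd96 -0.062. At 1500 UMIs Klra3 had -0.058 and Klra9 -0.0016. With at least 2 Cd226 UMIs Klra3 had -0.078 and Klra9 -0.11. In Itgam-only cells Klra3 had -0.080, Cd160 -0.071 and Tuba1b 0.062, and Cd96 had -0.091 in cells with neither stage gene. Klra3 had -0.020 with no filter, -0.025 with all 3 NK markers, -0.062 without Mki67 or Top2a cells, -0.0066 with a tag by stage block, and -0.026 to 0.041 without 1 tag. Pvrig had -0.60 to 0.024 without 1 tag.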

Other observations

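Cell cycle, ribosomal and metabolic genes have not yet been described. Of 23 cell cycle genes 2 fell in Cd226-positive cells, Tuba1b by 0.30 and Tubb5 by 0.28 on the log2 scale by edgeR; without tag 3 neither passed (-0.16 and -0.19), Tubb5 did not without tag 1 (-0.21) or with another draw (-0.18), and with classes from all UMIs it had 0.083. In all, 22 of 23 had a log2 fold below 0, with a median of -0.26. In the marker-free set none of 22 passed, with a median of -0.18. Cells with a UMI of Mki67 or Top2a, genes of dividing cells, made up 10.3% ± 1.33 of Cd226-positive and 9.14% ± 0.75 of Cd226-negative cells (SD, n = 3 tags each). Of 81 ribosomal protein genes 6 fell and none rose, with a median of -0.06 and a summed level of 172940 to 182120 CPM in Cd226-positive and 182520 to 195790 CPM in Cd226-negative cells. None of the 81 passed in the marker-free set, where the median was 0.00. Of 15 glycolysis genes the glucose transporter gene Slc2a3 rose by 0.36 with all cells and had 0.16 in the marker-free set; without tag 1 (0.33) or tag 3 (0.32) it did not pass.

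Of the 4 KATP channel subunit genes, 1 was expressed enough for a test, and it did not pass. The 4 together had 33.1 to 56.3 CPM in Cd226-positive and 43.3 to 48.5 CPM in Cd226-negative cells, so the ranges overlapped and no difference was detectable at this depth.

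The counts of the marker lists not yet described stand beside 1.5% higher and 2.68% lower of all genes tested. Of 7 tested erythroid markers 2 fell, Car1 and the globin gene Hbb-bt (-1.58), with a summed level of 278 to 308 CPM in Cd226-positive and 258 to 627 CPM in Cd226-negative cells; in the marker-free set Car1 of 5 fell and Car2, another carbonic anhydrase gene, rose by 0.38 (edgeR adjusted p = 0.00025). Of 5 plasmacytoid dendritic cell markers Cox6a2 fell by 1.86, with sums of 301 to 342 CPM in Cd226-positive and 328 to 339 CPM in Cd226-negative cells, and none of 3 passed in the marker-free set. Of 4 plasma cell markers Prdm1 alone rose, and none of 3 passed in the marker-free set. Both tested markers of other innate lymphoid cells, Klrb1b and Gata3, rose, and Klrb1b alone passed in the marker-free set. Both neutrophil markers tested, S100a8 and S100a9, fell, and Ly6g was at 0 in every cell analysed. Of 4 progenitor markers 3 fell, Kit, Myb and Cd34, the last at 0.17 CPM in Cd226-positive and 3.21 CPM in Cd226-negative cells; with another draw Cd34 (-2.40) did not pass, and in the marker-free set Kit alone of 3 did. Pecam1, an adhesion gene of endothelial and blood cells, had 65.8 ± 6.44 CPM in Cd226-positive and 46.9 ± 6.13 CPM in Cd226-negative cells (SD, n = 3 tags each), a log2 fold of 0.48 by edgeR, and 0.38 in the marker-free set, where it did not pass, nor without tag 3 (0.36) or with another draw (0.30). No basophil marker could be tested, and Mcpt8, Fcer1a and Ms4a2 were at 0. Of 18 immediate early genes Atf3 fell by 1.45 with all cells had -0.29 in the marker-free set and did not pass with another draw (-0.36). The mitochondrial gene mt-Co1 rose by 0.16, 1 of 13 genes of that genome, and did not pass without tag 2 (0.12).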
